A study of Mus musculus with 10 samples.

Results

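The aryl hydrocarbon receptor (AHR) and the genes it is known to act on were followed in mouse visceral fat as a set of 8 genes, picked by symbol out of the 56691 genes of the deposited count table: the receptor gene Ahr, its partner Arnt, its repressor Ahrr, and the target genes Cyp1a1, Cyp1a2, Cyp1b1, Tiparp and Nqo1. The set was drawn up with the values of the present comparison known, in which Cyp1a1 stood among the largest rises, so the values of the 8 genes between the groups are given as a description, without p-values. Poly(A) RNA came from the visceral fat of 10 male mice aged 10 weeks and fed chow for 8 weeks, 1 library per mouse. Mice WT1 to WT5 were labelled WT. Mice tg1 to tg5 were labelled aADM2-tg, described as overexpressing adrenomedullin 2 specifically in fat. No source used here names the strain, the transgene's sequence or the promoter that drives it.

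AHR is a transcription factor of the bHLH-PAS family that waits in the cytosol in a complex with the chaperone HSP90 and co-chaperones such as p23. Once it binds an aromatic ligand, such as a dioxin, a plant indole or a product of tryptophan breakdown, it enters the nucleus, pairs with ARNT and binds DNA at a short core, GCGTG, within the xenobiotic response element. CYP1A1, CYP1A2 and CYP1B1 are cytochrome P450 enzymes that oxidise such ligands, the AHR repressor AHRR competes for ARNT, and TIPARP is an ADP-ribosyltransferase that damps the receptor. In mice the receptor has been tied to fat gain on rich diets, and in cultured cells to the restraint of fat cell formation.

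The response element core was looked for around the start of each member's transcripts, since the members that differed between the groups did so in opposite directions. A RefSeq window of 300 bases, from 250 bases before to 50 bases after the start (GRCm38.p6), was at hand for 7 of the 8 genes, Ahr being the other one. Shown here are the windows of the 3 members that passed the threshold between the groups, Cyp1a1 (chr9:57697363-57697662, plus strand), Cyp1b1 (chr17:79715012-79715311, minus strand) and Nqo1 (chr8:107403156-107403455, minus strand). The window of Ahrr (chr13:74292282-74292581, minus strand) is added because it holds most copies. Each is written 5′ to 3′ along the gene, with the core GCGTG, or its reverse complement CACGC, in capitals.
Cyp1a1: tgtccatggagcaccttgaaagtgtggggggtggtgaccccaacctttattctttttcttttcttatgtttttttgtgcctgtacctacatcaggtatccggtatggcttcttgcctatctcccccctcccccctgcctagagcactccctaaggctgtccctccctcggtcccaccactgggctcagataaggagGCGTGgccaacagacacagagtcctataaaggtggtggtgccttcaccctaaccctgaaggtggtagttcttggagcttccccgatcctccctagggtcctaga
Cyp1b1: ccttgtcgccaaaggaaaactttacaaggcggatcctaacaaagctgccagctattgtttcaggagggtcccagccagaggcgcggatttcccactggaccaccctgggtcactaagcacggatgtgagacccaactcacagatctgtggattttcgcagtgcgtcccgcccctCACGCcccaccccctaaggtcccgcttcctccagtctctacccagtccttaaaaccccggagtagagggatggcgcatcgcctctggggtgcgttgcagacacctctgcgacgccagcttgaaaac
Nqo1: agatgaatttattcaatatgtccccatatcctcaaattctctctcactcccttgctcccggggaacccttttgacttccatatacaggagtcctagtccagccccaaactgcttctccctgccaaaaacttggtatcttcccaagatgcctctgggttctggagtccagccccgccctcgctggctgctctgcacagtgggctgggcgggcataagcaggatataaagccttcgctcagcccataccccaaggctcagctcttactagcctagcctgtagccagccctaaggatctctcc
Ahrr: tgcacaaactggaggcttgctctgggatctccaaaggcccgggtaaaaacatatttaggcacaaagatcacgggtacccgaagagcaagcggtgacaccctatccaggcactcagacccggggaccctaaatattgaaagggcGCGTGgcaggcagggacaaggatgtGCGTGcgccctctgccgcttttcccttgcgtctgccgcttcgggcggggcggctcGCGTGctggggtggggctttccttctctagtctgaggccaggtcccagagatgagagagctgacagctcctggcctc

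GCGTG, searched on both strands, was found in 5 of the 7 windows, where 32.4% of all 32851 RefSeq windows of this length hold it. Cyp1a1 had 1 copy, beginning 54 bases before the start, and Cyp1b1 had 1 on the opposite strand, 76 bases before it. Tiparp also had 1 copy, 170 bases before the start, and Arnt had 1, 29 bases before it. Ahrr had 3 copies, at 107, 82 and 27 bases before the start. The last of these lay within a match to the longer element TNGCGTG, the only such match among the 7, against 5.07% of all windows. Nqo1 and Cyp1a2 had no GCGTG in these windows. The antioxidant element TGACNNNGC, through which NRF2 acts on Nqo1, was not matched in the Nqo1 window either. Such elements can lie outside these windows. The counted Cyp1a1 gene spans 15897 bases, the same length as in GENCODE M21 (GRCm38), where it begins 9685 bases before the RefSeq start, so counts assigned to it can include RNA from further upstream. Cyp1a1 and Cyp1a2 lie head to head on chromosome 9, with 13958 bases between their RefSeq starts.

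Which libraries carry which label rests on the sample labels. The columns carry 2 lines of names with contrary group names, and the second of these, which follows the sample labels, was used. Adm2, the gene to be overexpressed, had 0 counts in all 5 libraries labelled aADM2-tg, 2 counts in WT3 and 0 counts in the other WT libraries, all under the limit of 3 counts that a count of 0 allows. The target gene thus gave the labels no support, and every direction below rests on the labels alone. Whether reads of the transgene would be counted as Adm2 is not known here. Between 16030435 and 18214504 reads were counted per library, and 3 counts came to 0.165 to 0.187 counts per 1000000 counted reads (CPM).

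Cyp1a1 was higher in every aADM2-tg library than in any WT library, Nqo1 likewise, and Cyp1b1 was lower in every one. Ahr, Arnt and Tiparp overlapped between the groups, and Cyp1a2 and Ahrr were close to the detection limit. Of the 8 genes 6 passed the expression filter, and 3 of these 6 passed an adjusted p of 0.05 in the edgeR fit over all genes, 2 higher and 1 lower in aADM2-tg. Of all 16591 tested genes 26.5% did so (13.8% higher, 12.7% lower). The groups did not overlap for the same 3 genes, as for 17.1% of all tested genes (7.33% higher, 9.75% lower). The median log2 change over all tested genes was 0.02.

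**Figure D1:**
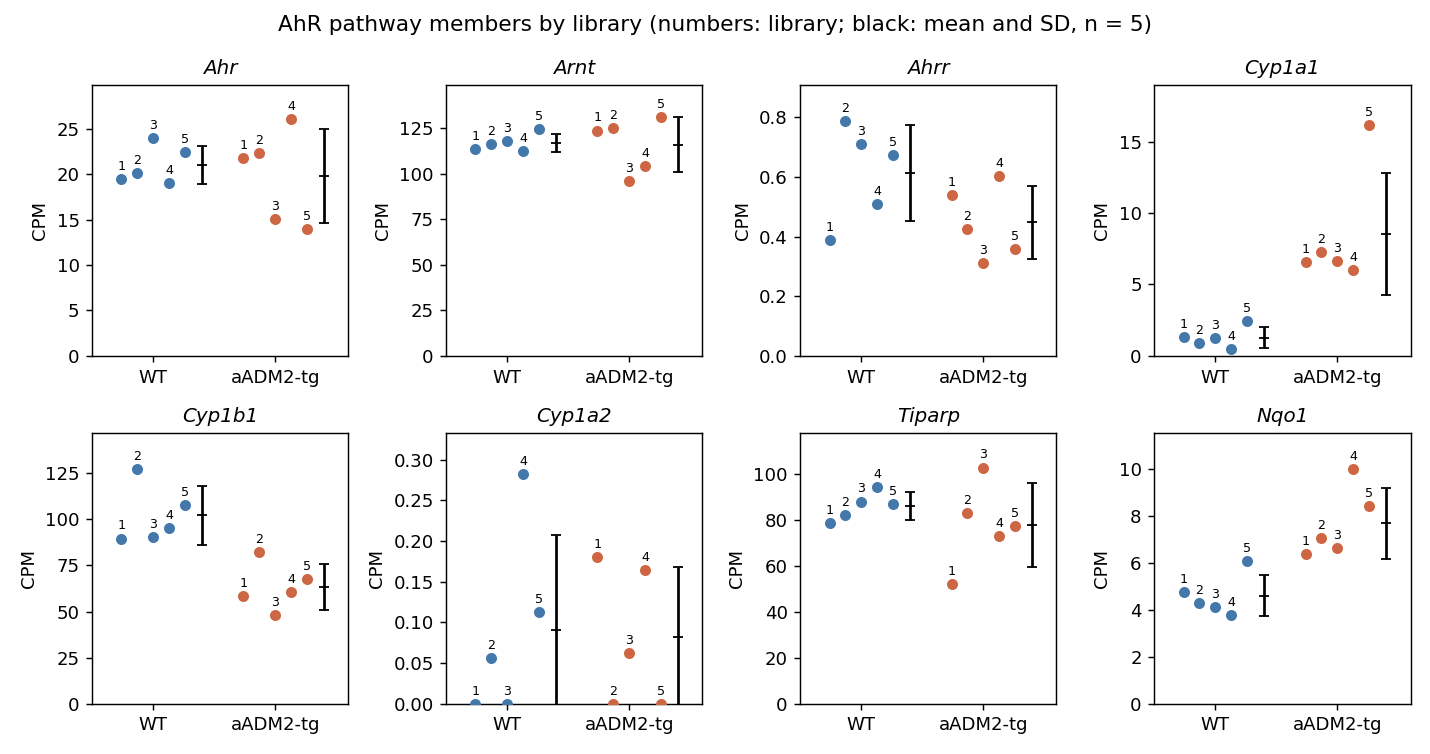
CPM (linear axis from 0) of the 8 genes in each library. Points are single mice, numbered within their group, and black bars give mean and SD (n = 5). Cyp1a1 stood at 0.508 to 2.42 CPM in WT and 5.98 to 16.1 CPM in aADM2-tg, while Ahr and Arnt overlapped.

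The receptor came first in the order of roles. Ahr (ENSMUSG00000019256, chromosome 12, 35547973 to 35585037, minus strand, coordinates as in the file, which names no build) stood at 19.4, 20.1, 24, 19.1 and 22.5 CPM in WT1 to WT5. In tg1 to tg5 it stood at 21.7, 22.3, 15.0, 26 and 13.9 CPM. The lowest and the highest values of all 10 libraries were both transgenic, so the groups overlapped. Ahr had a mean of 21 ± 2.12 CPM in WT and 19.8 ± 5.14 CPM in aADM2-tg (SD, n = 5), a log2 change of -0.03 (SE 0.160, 95% interval -0.38 to 0.33).

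Arnt, the partner that AHR needs to bind DNA and that HIF factors use too, was the steadiest of the 8. Arnt (ENSMUSG00000015522, chromosome 3, 95341699 to 95404551, plus strand) ran from 112 to 125 CPM in WT, with a median of 116 CPM. In aADM2-tg it ran from 95.8 to 131 CPM, with a median of 124 CPM. The group means were 117 ± 4.80 and 116 ± 15.0 CPM (n = 5), and the log2 change was 0.04 (SE 0.0745, 95% interval -0.12 to 0.21). Per kilobase of exon, Arnt was 3.78 to 4.54 times Ahr in the WT libraries, as a ratio of FPKM. In tg1 to tg5 this ratio was 4.38, 4.30, 4.90, 3.08 and 7.23, so tg4 and tg5 lay on either side of the WT range.

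Ahrr (ENSMUSG00000021575, chromosome 13, 74359237 to 74440450, minus strand), whose own transcription AHR can raise as a feedback, was barely detected. It had 7, 14, 12, 9 and 12 counts in WT1 to WT5 and 9, 7, 5, 11 and 6 counts in tg1 to tg5. Every value was above 3 counts, and the groups overlapped. It reached the filter level of 0.577 CPM in 3 WT libraries and 1 transgenic library and was not fitted. A difference in Ahrr was therefore not tested, and at this depth a small one could be missed.

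Cyp1a1 (ENSMUSG00000032315, chromosome 9, 57595211 to 57611107, plus strand), the P450 gene most used as a readout of the active receptor, had the widest gap between the groups. It was counted 24, 16, 21, 9 and 43 times in WT1 to WT5, which is 1.33, 0.900, 1.24, 0.508 and 2.42 CPM. In tg1 to tg5 it was counted 110, 119, 106, 109 and 271 times, which is 6.60, 7.25, 6.61, 5.98 and 16.1 CPM. The lowest transgenic value was thus above the highest WT value, and tg5 stood apart from the other 4 transgenic libraries. The mean was 1.28 ± 0.713 CPM in WT and 8.52 ± 4.29 CPM in aADM2-tg (SD, n = 5), a ratio of 6.66, and the fitted log2 change was 2.78 (SE 0.426). Without tg5 the log2 change was 2.43 (SE 0.373) and past the same threshold. Among the 16591 tested genes it was number 8 from the largest rise. Cyp1a1 reached the filter level in 4 WT libraries and in all 5 transgenic ones. The filter asks for 5 libraries, so the transgenic group alone was enough for it to be tested. In bulk tissue, more cells of a type and more RNA per cell cannot be told apart.

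Cyp1a2 (ENSMUSG00000032310, chromosome 9, 57584220 to 57590986, minus strand), a P450 gene used mostly by hepatocytes, did not share this gap although it is the neighbour of Cyp1a1. It had 0, 1, 0, 5 and 2 counts in WT1 to WT5 and 3, 0, 1, 3 and 0 counts in tg1 to tg5. A value above 3 counts was seen only in WT4, and the gene was not fitted. No difference was detectable at this depth. Of 6 hepatocyte markers 1, Serpina1c, was higher, and their summed level was 14.7 to 18.7 CPM in WT and 17.1 to 78.7 CPM in aADM2-tg. It was highest in tg4, where Cyp1a2 had 3 counts, and 16.0 CPM in WT4, where Cyp1a2 had 5 counts.

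Cyp1b1 (ENSMUSG00000024087, chromosome 17, 80008966 to 80022490, minus strand), the family member typical of stromal cells, went the other way. It stood at 89.6, 127, 90.5, 95.4 and 108 CPM in WT1 to WT5 and at 58.3, 82.2, 48.3, 60.3 and 67.4 CPM in tg1 to tg5. The groups did not overlap, with tg2 the closest transgenic library to WT. The mean was 102 ± 15.8 CPM in WT and 63.3 ± 12.6 CPM in aADM2-tg (SD, n = 5), 1.61-fold lower, with a log2 change of -0.63 (SE 0.118).

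The balance of the CYP1 genes was therefore unlike in the groups. FPKM, which divides CPM by exonic length and so lets genes be compared, put Cyp1b1 at 32.2, 67.5, 34.8, 89.7 and 21.3 times Cyp1a1 in WT1 to WT5. In tg1 to tg5 it was 4.22, 5.41, 3.48, 4.81 and 1.99 times Cyp1a1. Cyp1b1 exceeded Cyp1a1 in all 10 libraries. Cyp1a1 made up 1.09 to 4.47% of the summed FPKM of the 3 CYP1 genes in WT and 15.6 to 33.4% in aADM2-tg. The sum itself was 15.8 to 22.2 FPKM in WT and 10.7 to 17.3 FPKM in aADM2-tg, with overlap.

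**Figure D2:**
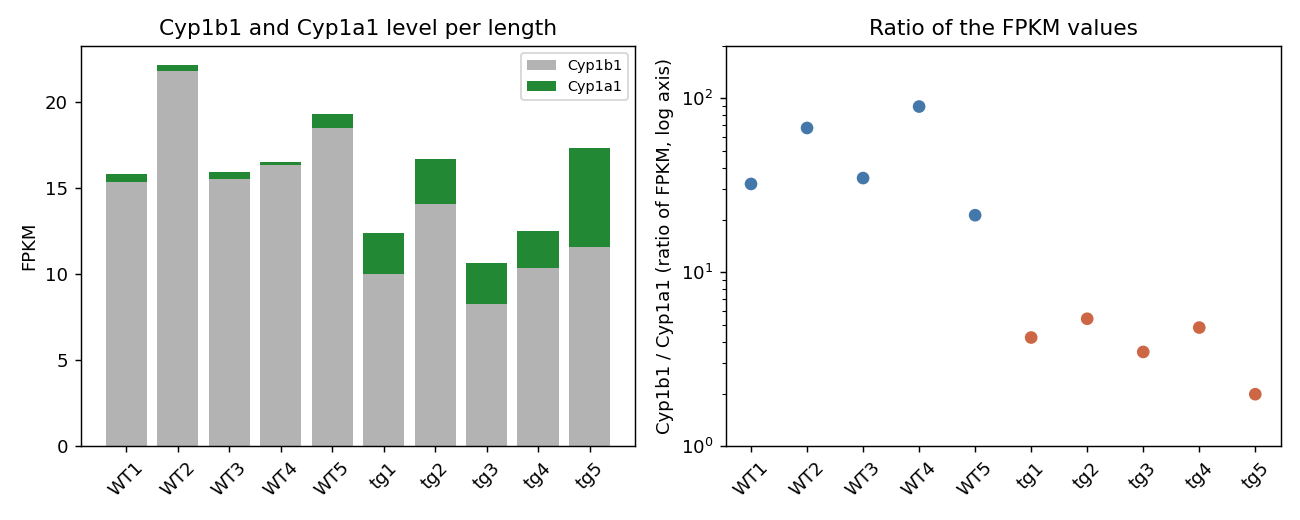
Left, FPKM of Cyp1b1 (grey) and Cyp1a1 (green), stacked from 0, in each library. Right, the ratio of the Cyp1b1 FPKM to the Cyp1a1 FPKM on a log axis, with WT in blue (21.3 to 89.7) and aADM2-tg in orange (1.99 to 5.41).

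Tiparp (ENSMUSG00000034640, chromosome 3, 65435831 to 65462939, plus strand), an AHR target that is induced quickly by ligand in many tissues, did not part the groups. It stood at 78.7, 82.1, 88.1, 94.4 and 87.0 CPM in WT1 to WT5 and at 52.3, 83.3, 103, 73.1 and 77.5 CPM in tg1 to tg5. The WT libraries all lay between the lowest, tg1, and the highest, tg3. The means were 86.1 ± 6.01 and 77.8 ± 18.2 CPM (n = 5), and the log2 change was -0.08 (SE 0.153, 95% interval -0.41 to 0.26).

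Nqo1 (ENSMUSG00000003849, chromosome 8, 108114857 to 108129838, minus strand), a quinone reductase gene driven by AHR and by the oxidative stress factor NRF2, was higher in aADM2-tg. It was counted 86, 76, 70, 67 and 108 times in WT1 to WT5, which is 4.76, 4.28, 4.14, 3.78 and 6.07 CPM. In tg1 to tg5 it was counted 106, 116, 106, 182 and 141 times, which is 6.36, 7.07, 6.61, 9.99 and 8.40 CPM. The groups parted by a narrow margin, between 6.07 CPM in WT5 and 6.36 CPM in tg1. The mean went from 4.60 ± 0.890 to 7.69 ± 1.51 CPM (n = 5), a ratio of 1.67, with a log2 change of 0.80 (SE 0.186). The library highest for Nqo1 was tg4 and that highest for Cyp1a1 was tg5.

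In order of level per kilobase of exon, the WT means were 19.8 FPKM for Tiparp, 17.5 for Cyp1b1, 14.6 for Arnt, 3.41 for Ahr, 2.96 for Nqo1, 0.459 for Cyp1a1, 0.0650 for Ahrr and 0.0448 for Cyp1a2. In WT the ranges of Tiparp and Cyp1b1 overlapped, as did those of Cyp1b1 and Arnt and those of Ahr and Nqo1. In aADM2-tg Cyp1b1 came below Arnt, at 10.8 against 14.5 FPKM, and Nqo1 above Ahr, at 4.95 against 3.21 FPKM. Their ranges overlapped. Cyp1a1 reached a mean of 3.06 FPKM there, within the range of Ahr, 2.26 to 4.22 FPKM. Its single values lay below that range in tg4, at 2.15 FPKM, and above it in tg5, at 5.79 FPKM.

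RNA of duct and ciliated epithelium was unevenly spread over the groups. A sum of 20 such genes, among them the cilia regulator Foxj1 and the duct factor Pax8, was 133 to 321 CPM in WT2 to WT5 and 414 CPM in tg2, against 7.30 to 16.8 CPM in WT1, tg1, tg3, tg4 and tg5. Pax8 was at 0 in 3 libraries, and none of the 18 fitted genes passed the threshold. Cyp1a1 followed the labels within either set of libraries. It was 1.33 CPM in WT1 against 5.98 to 16.1 CPM in tg1, tg3, tg4 and tg5, and 0.508 to 2.42 CPM in WT2 to WT5 against 7.25 CPM in tg2. Nqo1 was 4.76 CPM in WT1 and 7.07 CPM in tg2, each on its own group's side. So was Cyp1b1, at 89.6 CPM in WT1 and 82.2 CPM in tg2, though these were the lowest WT and the highest transgenic value. With the mean log2 CPM of the 20 genes as a term beside genotype, the log2 changes were 2.66 (SE 0.442) for Cyp1a1, 0.67 (SE 0.203) for Nqo1 and -0.51 (SE 0.112) for Cyp1b1. All 3 were past the threshold in that fit, as were 14.3% of all tested genes. Without WT1 and tg2 they were 2.89, 0.89 and -0.74, and past the threshold with 40.9% of all tested genes. In that fit all WT libraries were high in duct epithelium RNA and all transgenic ones low. It therefore cannot part genotype from duct epithelium RNA.

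**Figure D3:**
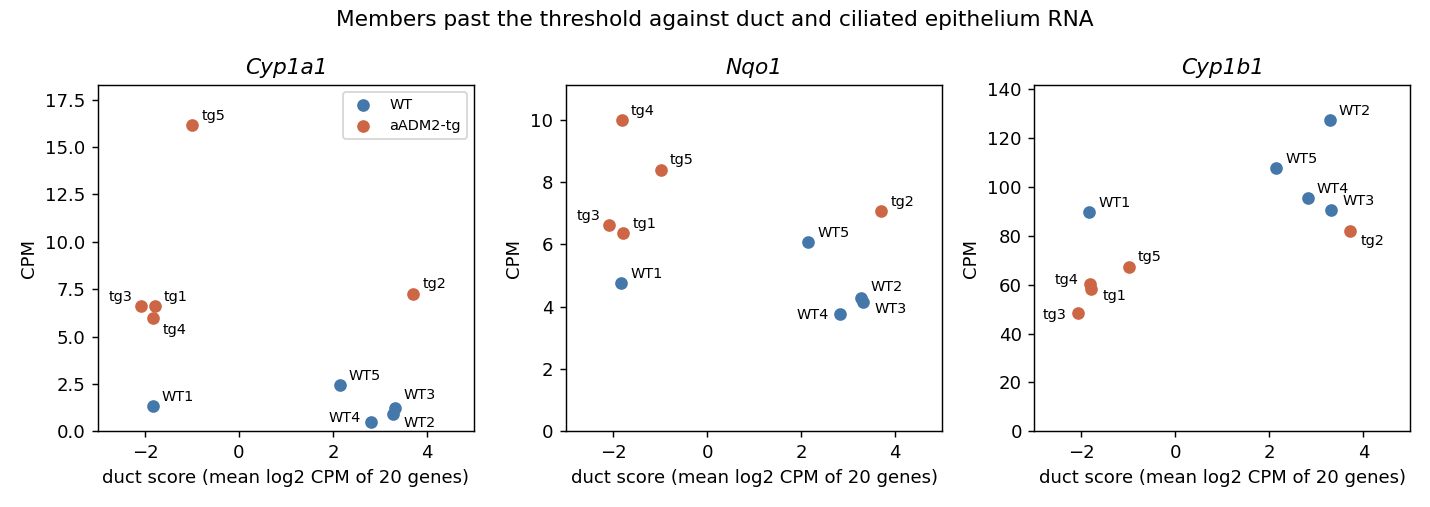
CPM of Cyp1a1, Nqo1 and Cyp1b1 (linear axes from 0) against the duct score (20 epithelial genes averaged as log2 CPM), with 1 point per library. WT1 lies among the low scores and tg2 among the high ones, and each stays on the CPM side of its group for the 3 genes.

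Markers of other cells of the tissue differed too, and their part in the members' values was not tested. Labels call the cells mature adipocytes, yet markers of macrophages, endothelium, fibroblasts and mesothelium were present in all 10 libraries, as in whole fat. Of 6 macrophage markers 3 were lower in aADM2-tg, and their sum was 901 to 1091 CPM in WT and 448 to 803 CPM in aADM2-tg. Of 6 fibroblast and progenitor markers 3 were lower and 1 higher, with sums of 1721 to 1935 CPM in WT and 1346 to 1920 CPM in aADM2-tg. Of 6 adipocyte markers 3 were higher, with sums of 8047 to 9557 and 9459 to 13402 CPM. Of 6 endothelial markers 2 were higher, with overlapping sums of 856 to 1124 and 851 to 1307 CPM, and of 6 lymphocyte markers 2 were higher, with sums of 5.79 to 11.3 and 4.87 to 24.5 CPM. Mesothelial sums ran from 118 to 233 CPM and from 48.6 to 306 CPM, and smooth muscle sums from 165 to 296 and from 172 to 297 CPM, with no marker past the threshold in either list. Of 7 male germ cell markers 3 were fitted and lower, with a sum of 131 to 164 CPM in WT2, WT3 and WT5, 8.35 CPM in each of WT4 and tg2, and at most 1.49 CPM elsewhere.

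Genes around the receptor were taken from 8 lists written from textbook knowledge, with earlier results of these data known. They were tested in the same edgeR fit over all genes (Benjamini-Hochberg). Over the lists together, 19 genes were higher and 10 lower in aADM2-tg. No share was computed for these totals. Shares are given list by list below, beside the 26.5% of all tested genes past the threshold (13.8% higher, 12.7% lower). Without WT2 the count of higher genes was 12, and without tg2 the count of lower genes was 16.

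The chaperone complex that holds AHR in the cytosol was higher: 4 of its 5 genes rose and the other one, the kinase co-chaperone Cdc37, was at 89.0 ± 1.76 and 88.3 ± 4.12 CPM (n = 5, edgeR adjusted p = 0.568). The median log2 change was 0.57, and 80% of the list passed against 26.5% of all genes. Ptges3, which encodes p23, rose from 93.1 ± 2.19 to 132 ± 11.3 CPM (n = 5, log2 0.57, SE 0.0774, edgeR adjusted p = 0.00134), with no overlap. Hsp90ab1, the constitutive HSP90, rose from 883 ± 39.5 to 1334 ± 328 CPM (n = 5, log2 0.66, edgeR adjusted p = 0.0129), and Hsp90aa1, the stress-inducible one, from 292 ± 19.3 to 433 ± 118 CPM (n = 5, log2 0.63, edgeR adjusted p = 0.0252). With the duct score as a term 1 gene of the list, Ptges3, was past the threshold (adjusted p = 0.00408), while Hsp90ab1 (0.0532) and Hsp90aa1 (0.0600) were not. The call of Hsp90aa1 also ended without any one of WT2, WT4, WT5, tg1 or tg3, with adjusted p from 0.00382 to 0.0645 in the 10 fits with 1 library less.

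Of 10 partners and coactivators 5 fell, 1 rose and 4 did not pass, or 60% past the threshold against 26.5% of all genes (12.7% lower), with a median log2 change of -0.31. The count of lower genes was 2 with the duct score as a term and 3 without 1 of WT2, WT3 and tg4. The HIF subunits, which compete with AHR for ARNT, parted. Epas1, which encodes HIF-2 alpha, rose from 366 ± 20.8 to 520 ± 65.9 CPM (n = 5, log2 0.57, edgeR adjusted p = 0.00293), and Hif1a fell from 117 ± 12.2 to 90.4 ± 6.74 CPM (n = 5, log2 -0.31, edgeR adjusted p = 0.00508). Neither overlapped between the groups, but Hif1a parted by a narrow margin, between 100.7 CPM in WT and 100.5 CPM in aADM2-tg. The coactivator Ncoa2 fell from 96.9 ± 5.62 to 63.1 ± 10.2 CPM (n = 5, log2 -0.56, edgeR adjusted p = 0.00196). Its relative Ncoa1 fell from 101 ± 9.21 to 78.7 ± 11.4 CPM (n = 5, log2 -0.31, edgeR adjusted p = 0.0165), a call that ended with the duct score as a term (adjusted p = 0.0808).

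Other genes reported as AHR targets did not follow Cyp1a1 as a list. Of 15 genes 10 were tested, of which 1 rose, 1 fell and 8 did not pass, or 20% against 26.5% of all genes, with a median log2 change of 0.07. The count of lower genes was 2 by DESeq2, with the duct score and without WT2. Socs2, an inhibitor of cytokine signalling, rose from 10.5 ± 1.68 to 17.7 ± 4.65 CPM (n = 5, log2 0.82, edgeR adjusted p = 0.00801). Serpinb2, an inhibitor of plasminogen activators, fell from 3.06 ± 1.17 to 0.484 ± 0.308 CPM (n = 5, log2 -2.60, edgeR adjusted p = 0.00546). Serpinb2 overlaps Serpinb10, whose counts came to 55.9% of its own, so some reads could belong to either. The listed targets Aldh3a1 and Gsta1 and the growth factor genes Ereg and Areg were below the filter in these libraries.

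Of 15 genes of the NRF2 pathway 14 were tested, and 3 rose while 11 did not pass. The share past the threshold, 21.4%, was near the 26.5% of all genes, and the median log2 change was 0.17. All 3 genes past it were higher, where 13.8% of all genes were higher. The count of higher genes was 5 by DESeq2 and without tg2, and 1 without 1 of WT2, tg3 and tg4. Without tg2, 1 gene was lower. The sulfiredoxin gene Srxn1 rose from 23.3 ± 2.12 to 29.4 ± 4.75 CPM (n = 5, log2 0.39, edgeR adjusted p = 0.0140). The glutathione transferase gene Gstm1 rose from 272 ± 38.7 to 348 ± 61.9 CPM (n = 5, log2 0.41, edgeR adjusted p = 0.0260) and the peroxiredoxin gene Prdx1 from 430 ± 15.3 to 509 ± 37.5 CPM (n = 5, log2 0.31, edgeR adjusted p = 0.0256). Gstm1 belongs to a family of near-identical copies, so its counts are uncertain. Its call ended without any one of WT1, WT2, WT5, tg1, tg3 or tg4 (adjusted p 0.0113 to 0.0774 over the 10 fits) and, at 0.0504, without WT1 and tg2 together. That of Prdx1 ended when WT2, WT3, WT4, tg3 or tg4 was left out (0.0113 to 0.0649) and with the duct score (0.127). Nfe2l2, which encodes NRF2, was at 108 ± 6.81 and 110.3 ± 12.0 CPM (n = 5, log2 0.09).

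The tryptophan to kynurenine list holds enzymes that make kynurenine, an AHR ligand, and others that use it up. Of 11 genes 7 were tested, and none passed the edgeR threshold, against 26.5% of all genes. An unadjusted p under 0.05 was seen for 1 gene, and 0 genes passed by DESeq2. Without tg2, 2 genes were lower, and without WT1 and tg2 together 2 were lower and 1 higher. Kyat3 was at 22.9 ± 1.90 and 24.8 ± 2.18 CPM (n = 5, edgeR adjusted p = 0.219). It passed without WT1 and tg2 (edgeR adjusted p = 0.0183), a fit in which genotype and duct epithelium RNA cannot be told apart. With the duct score as a term its log2 change was 0.02 (edgeR adjusted p = 0.917). Kyat1, which like Kyat3 turns kynurenine into kynurenic acid, was at 8.31 ± 0.458 and 9.46 ± 1.02 CPM (n = 5, edgeR adjusted p = 0.0951). Ido1, the inducible first enzyme of the route, was at 1.24 ± 1.73 and 1.76 ± 2.63 CPM (n = 5, edgeR adjusted p = 0.703).

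Targets of HIF, which share ARNT with AHR, split. Of 12 genes 10 were tested: 3 rose, 2 fell and 5 did not pass, or 50% past the threshold against 26.5% of all genes, with a median log2 change of 0.18. The count of higher genes was 1 without 1 of WT3, WT5 and tg3, and 5 without WT1 and tg2 together. The vessel growth factor gene Vegfa rose from 296 ± 24.2 to 461 ± 107 CPM (n = 5, log2 0.70, edgeR adjusted p = 0.00837) and Ndrg1 from 160 ± 27.7 to 203 ± 31.0 CPM (n = 5, log2 0.41, edgeR adjusted p = 0.0272). The call of Ndrg1 ended without any one of WT3, WT5, tg3 or tg4 (adjusted p 0.0261 to 0.0605 over the 10 fits). The pyruvate dehydrogenase kinase gene Pdk1 fell from 63.4 ± 3.63 to 48.3 ± 5.91 CPM (n = 5, log2 -0.33, edgeR adjusted p = 0.0135), and the histone demethylase gene Kdm3a from 62.8 ± 7.0 to 45.1 ± 8.54 CPM (n = 5, log2 -0.41, edgeR adjusted p = 0.0140).

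Among the other cytochrome P450 genes, 28 of 93 were tested, of which 4 rose, 2 fell and 22 did not pass. The count of higher genes was 2 with the duct score as a term and without WT2 or tg1, and that of lower genes was 4 without tg2 and 6 without WT1 and tg2 together. The share past the threshold was 21.4%, near the share of all genes, with a median log2 change of 0.07. Cyp26b1, which breaks down retinoic acid, rose from 3.01 ± 0.801 to 12.4 ± 6.48 CPM (n = 5, log2 2.10, edgeR adjusted p = 0.00341). Cyp27a1, which hydroxylates sterols, rose from 51.2 ± 8.26 to 75.2 ± 5.69 CPM (n = 5, log2 0.62, edgeR adjusted p = 0.00468). The oxysterol hydroxylase gene Cyp39a1 fell from 7.10 ± 0.942 to 3.54 ± 0.736 CPM (n = 5, log2 -0.94, edgeR adjusted p = 0.00342). Cyp51, of cholesterol synthesis, fell from 54.9 ± 4.76 to 35.1 ± 6.57 CPM (n = 5, log2 -0.59, edgeR adjusted p = 0.00522). Cyp51 overlaps Akap9 on the opposite strand, which had 14265 counts against its 7800. Without a known strand setting, reads from a stretch that both cover could belong to either. The size of that stretch was not measured.

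Of the 8 genes that supply P450 enzymes with electrons and haem, 3 rose and 5 did not pass, or 37.5% past the threshold against 26.5% of all genes (13.8% higher), with a median log2 change of 0.16. Without tg1, 1 gene was lower. Alas1, the rate-limiting enzyme of haem synthesis, rose from 214 ± 28.7 to 317 ± 48.2 CPM (n = 5, log2 0.63, edgeR adjusted p = 0.00445). Cyb5a, cytochrome b5, rose from 381 ± 19.0 to 482 ± 42.8 CPM (n = 5, log2 0.41, edgeR adjusted p = 0.0146) and Por, the P450 reductase, from 420.2 ± 48.0 to 502 ± 34.8 CPM (n = 5, log2 0.32, edgeR adjusted p = 0.0429). With the duct score as a term Cyb5a (adjusted p = 0.0586) and Por (0.214) were not past the threshold. The call of Por also ended without any one of WT2, WT4, WT5, tg1, tg3, tg4 or tg5 (0.0146 to 0.103 over the 10 fits).

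**Figure D4:**
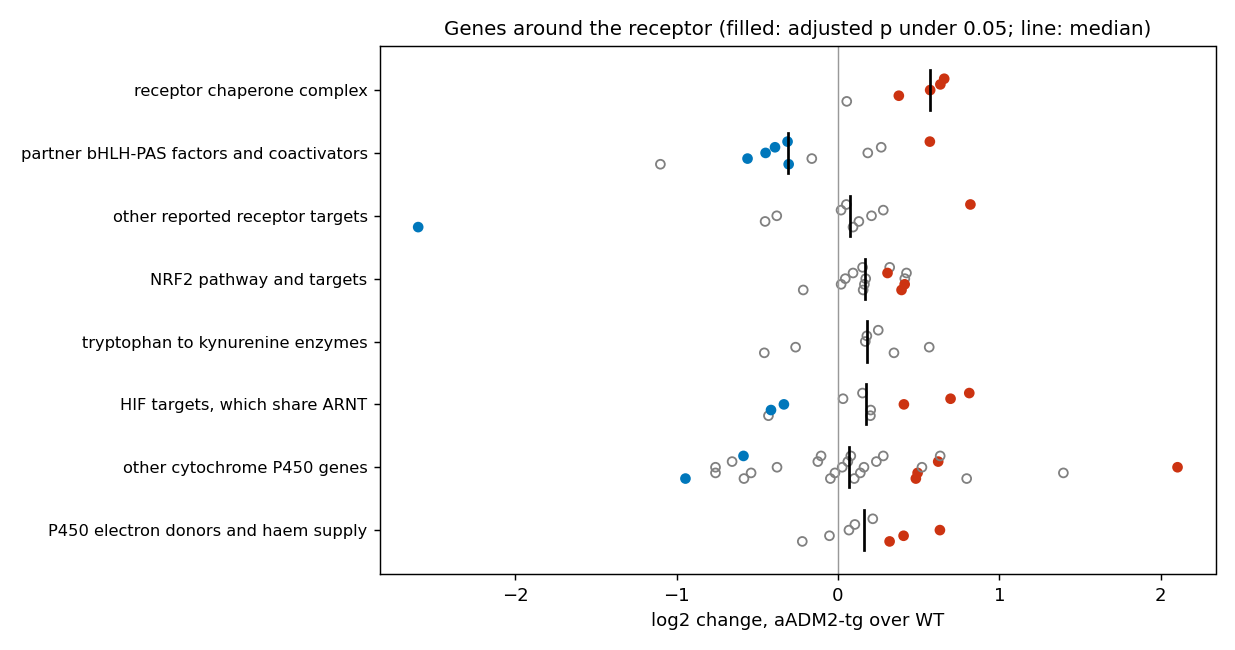
Fitted log2 change of aADM2-tg over WT for each tested gene of the 8 lists. Filled points (red higher, blue lower) passed an edgeR adjusted p of 0.05, open points did not, and the black line is the median of the list, 0.57 for the chaperone complex and -0.31 for the partners and coactivators.

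The genes whose profile over the 10 libraries lay nearest to that of Cyp1a1 were looked up among 13673 tested genes with a mean of at least 1 CPM, by the root mean square difference between centred log2 CPM profiles. Among the 5 nearest were C6, of terminal complement (0.456), Rab9b (0.469), Rasgrf1 (0.575) and Dcst1 (0.671). C6 ran from 22.5 to 57.9 CPM in WT and from 88.1 to 218 CPM in aADM2-tg. Each of these 4 had no overlap between the groups, as a likeness to Cyp1a1 brings with it. Reads of Dcst1 may in part be those of Dcst2, which overlaps it with 46.6% as many counts. By the same measure Nqo1 was number 155 of 13672 genes in order of likeness to Cyp1a1, at 1.09. Arnt was number 5124 at 1.45, Ahr number 8587 at 1.56, Tiparp number 8606 at 1.56 and Cyp1b1 number 11636 at 1.79. The profiles span both groups, so this order carries each member's own change between them and is no separate result.

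Across the settings tried, Cyp1a1, Nqo1 and Cyp1b1 kept their direction and their call in each fit, while Ahr and Tiparp changed sign around 0 when single libraries were left out. Leaving out 1 library at a time gave 2.43 to 3.13 for Cyp1a1, 0.68 to 0.91 for Nqo1 and -0.73 to -0.57 for Cyp1b1 on the log2 scale. All these fits reuse the values known when the members were picked, so they are a description and no separate test.

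**Figure D5:**
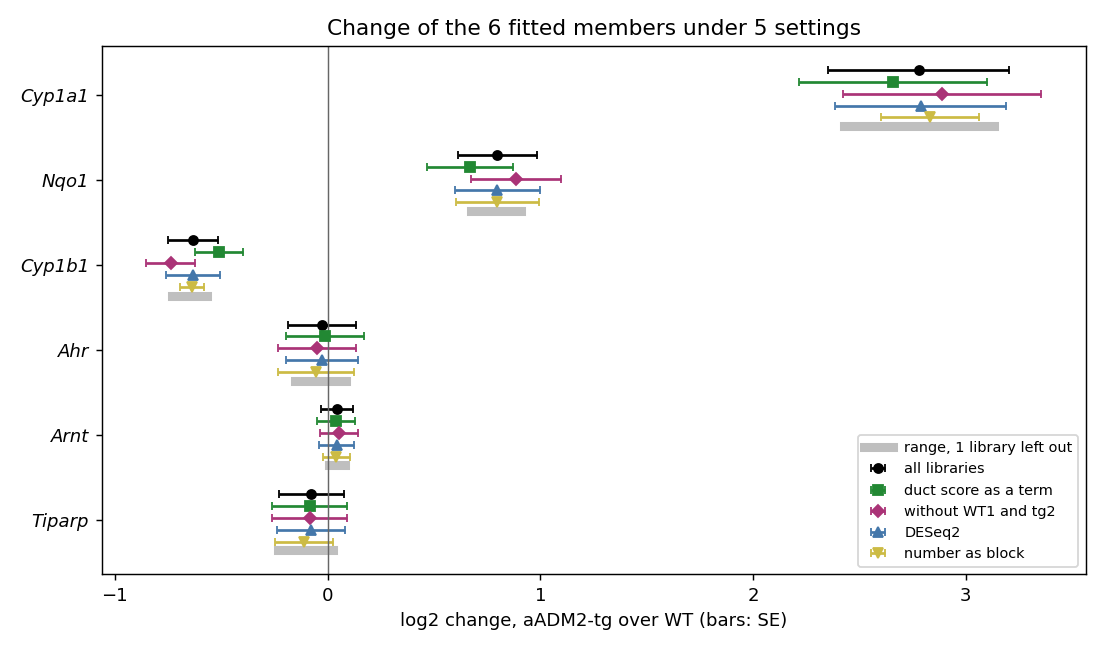
Fitted log2 change of aADM2-tg over WT for the 6 fitted members, with SE, in the fit of all libraries and in 4 other fits (duct score as a term, without WT1 and tg2, DESeq2, replicate number as a block). Grey bars span the 10 fits with 1 library less, 2.43 to 3.13 for Cyp1a1.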

How the data were processed

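RNA was isolated with TRIzol and poly(A)-selected, per the labels' protocols. The deposited table holds raw read counts per gene, 1 column per library, per the file headers, and the authors' other values in it are each gene's exonic length and 10 FPKM columns, which were left aside. HISAT2 2.2.1 and HTSeq 0.6.1 are listed in the submitters' processing notes. Genome build, annotation release and strand setting: not given in the sources used here. Titles and descriptions of transgenic samples 3, 4 and 5 disagree on their numbers, so tg3, tg4 and tg5 follow the column names, which leaves their group as labelled.

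The counts were fitted with edgeR 4.0.16 (R 4.3.3): filterByExpr, which here kept genes with at least 0.577 CPM in 5 libraries, TMM scaling, a quasi-likelihood test of genotype, with no covariate, in the 10 libraries, and Benjamini-Hochberg adjustment over 16591 tested genes at 0.05. CPM and FPKM were computed from the counts, per 1000000 counted reads. Each ± is an SD over 5 mice. As a floor, 3 counts allow for counting error alone.

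Members, the 8 gene lists, the 10 marker lists and the alternatives were chosen with earlier results of these data known. Named were all members, from each list at most 4 genes past the threshold, smallest adjusted p first, or, with none, the 2 of highest mean CPM, and the 5 genes nearest to Cyp1a1. Others (Cdc37, Nfe2l2, Ido1, and genes below the filter) were named for their role after their values were seen. This naming rule also picked genes whose values are left out here. Alternatives were DESeq2 size factors, DESeq2 1.42.0, no expression filter, each library left out, the replicate number as a block, the duct score as a term, and leaving out WT1 and tg2. Log2 CPM for the score and likeness used a prior count of 2.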

Additional observations from a re-analysis of the deposited data

Results flagged for a closer look

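Cyp1a1 in tg5, at 16.1 CPM, lay far from the other 4 transgenic libraries, which ran from 5.98 to 7.25 CPM. Its gap to the nearest of them was 0.875 of the range of the group, above Dixon's critical value of 0.71 for 5 samples. This was 1 of 16 groups of 5 examined, and chance gives about 1 such case in 20 groups. The same library had the lowest Ahr of its group, 13.9 CPM, and the highest Arnt, 131 CPM.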

How the results depend on the processing

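The log2 changes of Cyp1a1, Nqo1, Cyp1b1 and Arnt kept their sign and their side of the threshold under all 16 alternatives. That of Ahr turned sign without WT3 (0.02), tg3 (0.04) or tg5 (0.0849), with -0.15 to 0.0849 over the fits that leave out 1 library, and that of Tiparp without tg1 (0.0255), with -0.23 to 0.0255. Neither passed the threshold in any fit. The cause was not tested. Over the same 10 fits Arnt ran from 0.01 to 0.08, Cyp1a1 from 2.43 to 3.13, Nqo1 from 0.68 to 0.91 and Cyp1b1 from -0.73 to -0.57, with 2 members higher and 1 lower in each. Counts over all genes moved more: 2285 higher genes became 942 with the duct score as a term and 1370 to 3050 with 1 library left out (1370 without WT2, 1505 without WT3, 1518 without WT4, 1515 without WT5). The 2107 lower genes became 3622 without WT1 and tg2 and 1609 to 3629 with 1 library left out (3629 without tg2). In the lists, 19 higher genes became 11 with the duct score and 12 to 21 with 1 library left out, and 10 lower genes became 18 without WT1 and tg2 and 8 to 16 with 1 library left out. Pairing by replicate number was checked. Of 5 pairs of the same number 2 had deviations correlated over 0.1, and 2 of 5 WT libraries correlated best with their own number. With the numbers of tg3, tg4 and tg5 in doubt, this cannot settle whether libraries of the same number belong together. With the replicate number as a block, Cyp1a1 was at 2.83 (SE 0.230), Nqo1 at 0.80 (SE 0.194) and Cyp1b1 at -0.64 (SE 0.0568). Without the block the SEs were 0.426, 0.186 and 0.118. The lists held 20 higher and 12 lower genes with the block. Depth limits Cyp1a2 and Ahrr.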

Other observations

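The spread within groups differed among the members. The coefficient of variation of CPM was 4.11% in WT and 13.0% in aADM2-tg for Arnt, 10.1% and 26% for Ahr, and 6.98% and 23.4% for Tiparp (n = 5 in each). For Cyp1b1 it was 15.5% and 19.9%, for Nqo1 19.3% and 19.6%, and for Cyp1a1 55.8% and 50.3%. Of all tested genes 74.7% had the larger coefficient in aADM2-tg, with medians of 12.0% in WT and 17.4% in aADM2-tg.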
